A study of Mus musculus with 22 samples.

Results

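Loss of VHL was examined in CD8+ T cells taken from tumors on day 11. The members are the 6 libraries whose labels give day 11 and tumor, of 22 libraries in the series: 3 of VHL-deficient cells and 3 of wild-type (WT) cells. All 6 held P14 cells, CD8+ T cells with a transgenic receptor for a peptide of lymphocytic choriomeningitis virus, from C57BL/6 mice 6 to 12 weeks old, and the design gives 5 mice for each biological replicate. The other 16 libraries hold day 7 cells of both genotypes, from spleen or tumor. The tumor cells carry the sort label Trm, for resident memory, or nonTrm, or neither (unsplit). The sources used here name neither the promoter or Cre line behind the VHL deficiency, nor the tumor line, nor the event counted as day 0. The p-values reflect spread from library to library.

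VHL is the substrate-binding subunit of a ubiquitin ligase. When oxygen is present, prolyl hydroxylases of the EGLN family hydroxylate the alpha subunits of hypoxia-inducible factor (HIF), VHL binds the hydroxylated form, and the subunit is degraded. Without VHL the alpha subunits persist in the presence of oxygen, pair with ARNT and bind a short DNA motif near target genes, many of which encode glycolytic enzymes, glucose carriers and regulators of mitochondria. In CD8+ T cells the same pathway is known to act on effector differentiation.

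Values are scaled counts, that is, reads of a gene divided by the size factor of its library. The 6 libraries held 3770210 to 8831316 reads assigned to genes, of which 1 ribosomal RNA gene took 28.0% to 32.6%, and 1 read was worth 0.762 to 1.82 scaled counts. A gene was called when limma, on log2(scaled count + 1) over all 22 libraries, gave an adjusted p under 0.05. Among the 6 libraries alone, the first principal component held 50.7% of the variance of log2 values, with the 3 VHL-deficient libraries on one side of it and the 3 WT libraries on the other. The label of CD8 cells fitted their markers: the 9 CD8 T-cell markers summed to 46138 to 50456 in VHL-deficient and 39308 to 40969 in WT libraries, none was called by limma or by voom, and 1 of them had an unadjusted p under 0.05. WT replicate 2 stood apart from the other 5 libraries by Elane and Mpo, messages of neutrophil granules. Elane had 0, 3.84 and 0 scaled counts in the VHL-deficient and 0, 277 and 0 in the WT libraries, and Mpo had 0, 0 and 0 against 0, 198 and 2.59. All 9 neutrophil markers summed to 38.9 to 154 in VHL-deficient and 6.05 to 872 in WT libraries. The 1 marker tested lay higher in VHL-deficient libraries without overlap (log2 fold change 2.89). It was not called by limma and was called higher by voom. The 5 markers of CD4 T and regulatory cells summed to 4655 to 6555 in VHL-deficient and 2943 to 4323 in WT libraries, mostly from Ctla4, which activated CD8 cells also express, with none called and Cd4 at most 23.0 in every library. Markers of melanocytes and melanoma summed to 46.5 to 68.5 in VHL-deficient and 27.4 to 42.4 in WT libraries, and none of the 3 tested was called. In bulk RNA, fewer cells of a type and less RNA per cell cannot be told apart, in any result below.

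VHL-deficient day 11 cells carried 641 genes that rose and 343 that fell against WT cells, of 14327 tested. That is 4.47% in the higher and 2.39% in the lower direction, the background for the gene groups below. Of the risen genes, 273 rose by over 2 log2 units and 131 by over 3, while 81 and 9 genes fell by as much, so the large changes lay mostly on the higher side. Across all tested genes the median log2 fold change was 0.07. In 637 of the 641 risen genes every VHL-deficient library lay above every WT library, which was so in 20.6% of tested genes; in 341 of the 343 fallen genes every VHL-deficient library lay below, against 17.9% of tested genes. Without WT replicate 2, the library high in Elane and Mpo, 483 genes rose and 200 fell. The 984 calls (6.87% of tested genes) became 501 or 419 when VHL-deficient replicate 1 or 2 was left out, and 578 or 482 when WT replicate 1 or 3 was. The calls numbered 1549 when a library outside the comparison, VHL-deficient nonTrm replicate 2, was left out of the shared variance. With scaling to the sum of counts outside ribosomal RNA, mitochondrial and ribosomal protein genes, 516 rose and 423 fell, so 55.0% of calls were higher, against 65.1% as deposited. Of the 201 called genes given with a value here, 116 kept the call without each of the 6 libraries, 85 lost it without 1 or more, at adjusted p-values up to 0.260, and none turned direction.

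**Figure D1:**
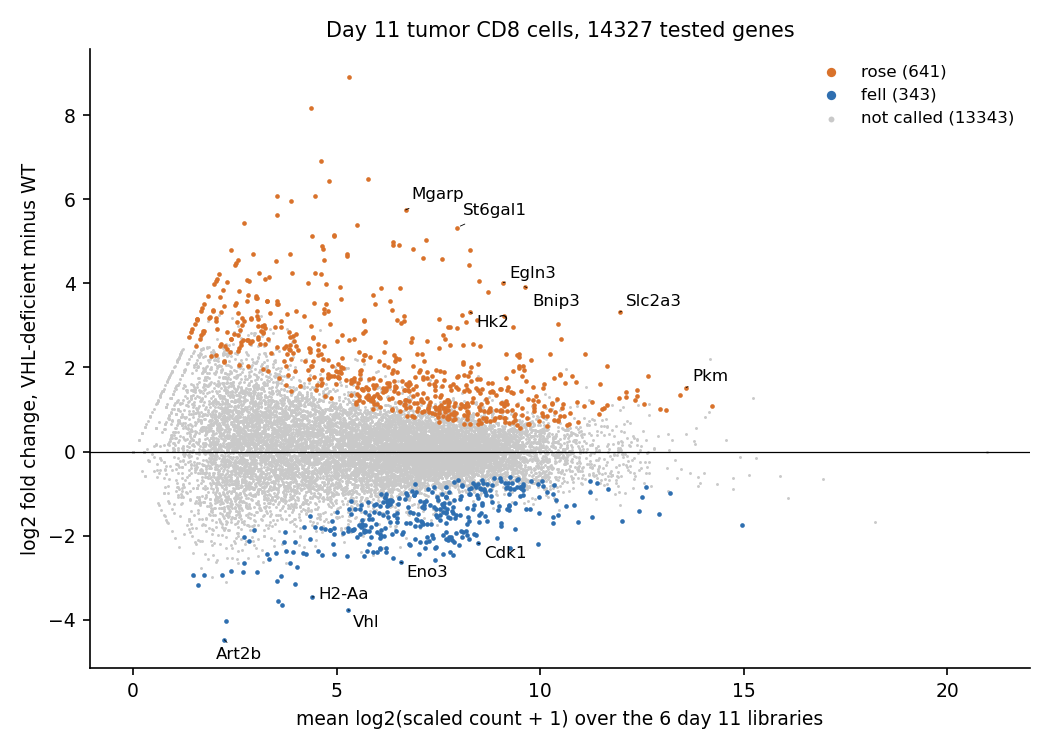
Each point is 1 of 14327 tested genes in day 11 tumor cells, with its mean log2(scaled count + 1) over the 6 libraries on the x axis and the log2 fold change, VHL-deficient minus WT, on the y axis. The 641 risen genes (orange) reach log2 fold changes of over 5, as for Mgarp and St6gal1, while the 343 fallen genes (blue) lie closer to 0, with Vhl and Art2b among the lowest of those labelled.

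Vhl checked the labels first. The gene (chromosome 6, 113623959 to 113631633 in mm10, GENCODE M21) had 12.8, 16.9 and 3.81 scaled counts in the VHL-deficient libraries, against 122, 155 and 155 in the WT libraries. The VHL-deficient libraries were low in all 3 replicates, without reaching 0, and the groups did not overlap (log2 fold change -3.77, SE 0.66, adjusted p = 0.00109). Of the other 6 measured parts of the ligase or of the SIAH ligases that act on the EGLN enzymes (Eloc, Elob, Cul2, Rbx1, Siah1a, Siah2), none was called by limma or voom, nor had an unadjusted p under 0.05.

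In oxygen sensing itself, Egln3 and Egln1 rose among the 4 hydroxylases and Hif3a among the alpha subunits, while the alpha subunits Hif1a and Epas1 and their partner Arnt were not called. Egln3, a HIF prolyl hydroxylase, had 2134, 2864 and 1753 scaled counts in VHL-deficient and 120.3, 166 and 123 in WT libraries (log2 fold change 4.02, SE 0.24, adjusted p = 1.22e-09). Egln1, the main HIF prolyl hydroxylase in most cells, had 265, 261 and 240.2 against 80.2, 57.1 and 87.3 scaled counts (log2 fold change 1.78, SE 0.24, adjusted p = 7.67e-05). All 3 VHL-deficient libraries were high for both enzymes. Egln2 and the asparaginyl hydroxylase Hif1an, which blocks the activation domain of HIF, had log2 fold changes of -0.15 (adjusted p = 0.734) and 0.73 (adjusted p = 0.289).

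Hif3a, whose short forms bind other alpha subunits and damp them, had 24.4, 44.6 and 20.6 scaled counts in VHL-deficient libraries, against 0, 0 and 4.32 in WT libraries, of which 2 had no read (adjusted p = 0.00111). Hif1a, the alpha subunit best known in T cells, had 1361, 1619 and 1779 against 2210.1, 2549 and 2522 scaled counts, with every VHL-deficient library below every WT one, and did not pass the test (log2 fold change -0.62, SE 0.23, adjusted p = 0.123). Epas1, which encodes HIF-2 alpha, had 102, 209.8 and 121 against 60.2, 124 and 74.4 scaled counts, with overlap between the groups and its highest value in VHL-deficient replicate 2 (adjusted p = 0.314). Arnt had a log2 fold change of 0.32 (adjusted p = 0.660).

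Among the better-expressed genes (mean log2 level above the median of 6.13), Mgarp rose the most. Mgarp (chromosome 3, 51388412 to 51396738), a mitochondrial protein first known as a hypoxia-induced gene, had 815, 832 and 645 scaled counts in VHL-deficient libraries and 10.9, 19.8 and 10.4 in WT libraries (log2 fold change 5.75, SE 0.46, adjusted p = 8.42e-08). St6gal1, which caps glycans with alpha-2,6-linked sialic acid (chromosome 16, 23224740 to 23360350), had 1659, 1699 and 1347 against 29.2, 45.2 and 41.5 scaled counts (adjusted p = 1.16e-06). P4ha2, a collagen prolyl hydroxylase subunit (chromosome 11, 54100095 to 54131665), had 846, 925 and 768 against 21.9, 31.7 and 21.6, and its adjusted p of 4.48e-10 came with an SE of 0.27. In all 3 genes each VHL-deficient library was more than 10 times each WT library.

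Signalling and surface genes were also among the leading risen genes. Igf1r, the receptor for insulin-like growth factor 1, had 485, 455 and 597 scaled counts in VHL-deficient libraries, against 10.9, 16.6 and 22.5 in WT libraries (log2 fold change 4.90). Sdc4, a heparan sulfate proteoglycan of the cell surface, had 663, 730.2 and 500.2 against 23.7, 19.0 and 20.8 (log2 fold change 4.82). Sema6d, a transmembrane semaphorin, had 1087, 1008 and 778 against 16.4, 91.2 and 37.2 (log2 fold change 4.59). VHL-deficient replicates lay within 1.5 times of each other for Igf1r, Sdc4 and Sema6d, while WT Sema6d was highest in replicate 2. Stc2, a secreted stanniocalcin, had 415, 443 and 531 against 32.8, 11.1 and 7.78 (log2 fold change 4.91), and Ak4, a mitochondrial adenylate kinase, had 492, 458 and 468 against 3.65, 29.3 and 22.5 (log2 fold change 4.99). Btnl9, of the butyrophilin-like family, and Rnf128, the ubiquitin ligase GRAIL that is known from T cell anergy, rose by 3.58 and 3.36 log2 units. Spin4, of the spindlin family, had 563, 297 and 284 against 31.0, 55.5 and 6.92 with its highest value in VHL-deficient replicate 1 (adjusted p = 0.00194).

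**Figure D2:**
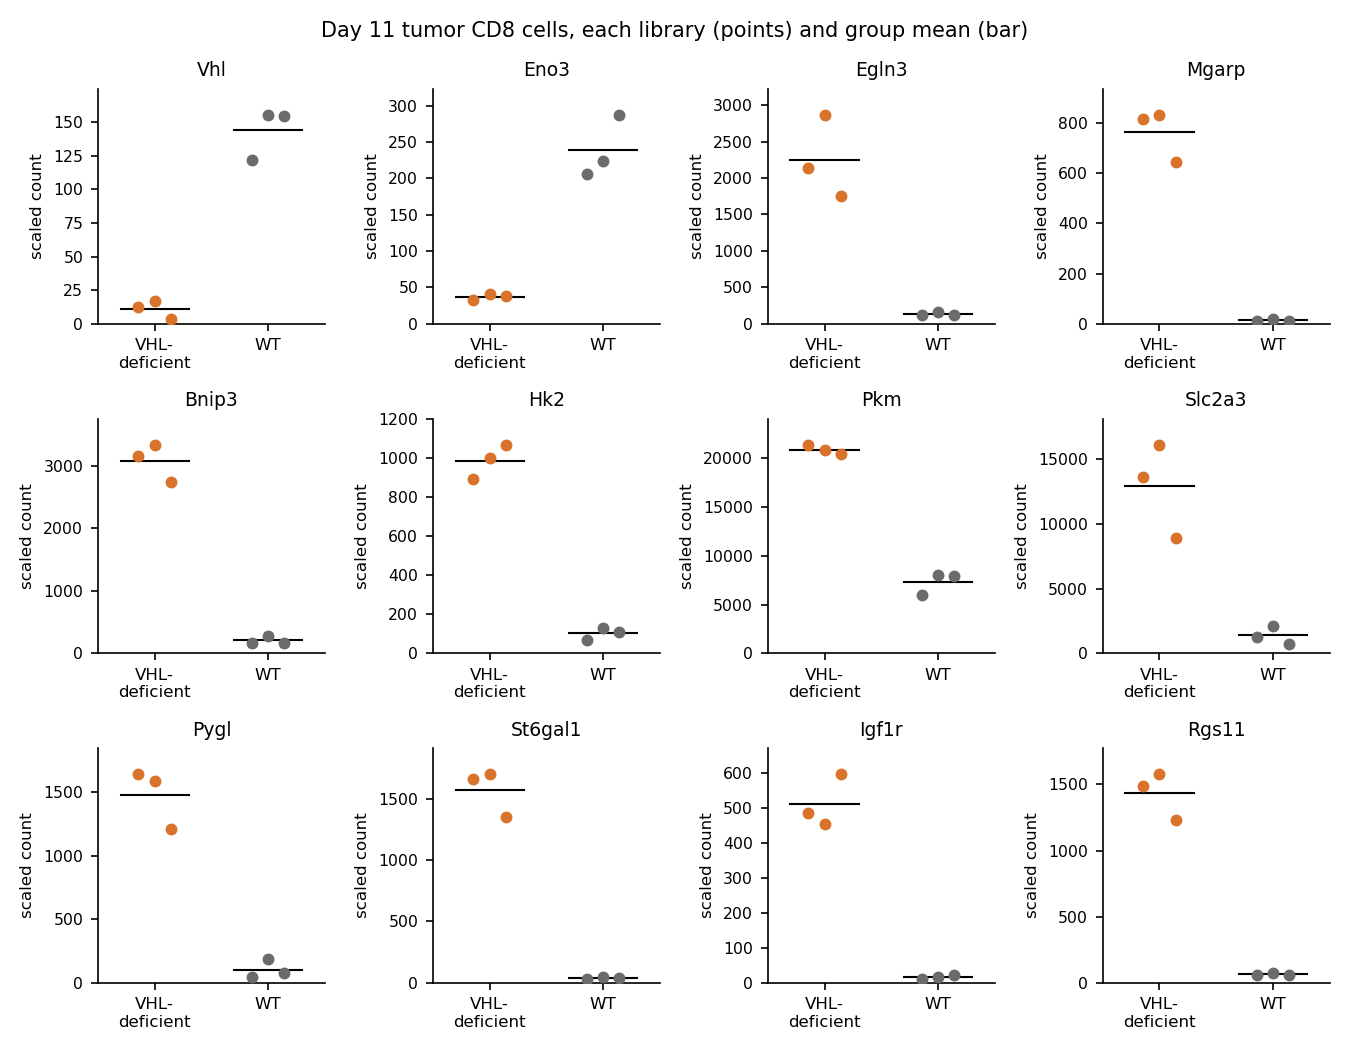
Scaled counts of 12 genes in each day 11 library, with VHL-deficient replicates 1 to 3 (orange) to the left of WT replicates 1 to 3 (grey) and a bar at each group mean; each axis starts at 0. Vhl and Eno3 are low in the VHL-deficient libraries, at means of 11.2 and 37.4 against 144 and 239, and in the other 10 genes the VHL-deficient libraries lie above the WT ones.

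The windows at the starts of some leading genes are shown because HIF dimers are known to bind the core ACGTG or GCGTG. Both motifs were searched on both strands, where they read CACGT and CACGC on the other strand, in RefSeq windows of GRCm38.p6 from 250 bases before to 50 after each start. The following 80-base stretches, printed 5′ to 3′ in the direction of the gene with each match in capitals, belong to 6 genes of the leading 20. They lie at chr3:51396718-51396797 on the minus strand (Mgarp), chr11:54100798-54100877 on the plus strand (P4ha2), chr7:138909573-138909652 on the minus strand (Bnip3), chr12:54204045-54204124 on the minus strand (Egln3), chr12:70227738-70227817 on the minus strand (Pygl) and chr6:82774625-82774704 on the minus strand (Hk2).
Mgarp: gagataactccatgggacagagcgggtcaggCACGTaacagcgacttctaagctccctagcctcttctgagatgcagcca
P4ha2: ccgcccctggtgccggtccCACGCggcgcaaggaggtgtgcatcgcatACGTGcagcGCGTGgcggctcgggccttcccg
Bnip3: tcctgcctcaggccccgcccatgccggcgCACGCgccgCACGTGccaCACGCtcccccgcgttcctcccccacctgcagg
Egln3: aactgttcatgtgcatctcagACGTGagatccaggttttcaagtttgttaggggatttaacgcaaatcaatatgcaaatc
Pygl: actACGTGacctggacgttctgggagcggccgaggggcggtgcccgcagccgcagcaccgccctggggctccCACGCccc
Hk2: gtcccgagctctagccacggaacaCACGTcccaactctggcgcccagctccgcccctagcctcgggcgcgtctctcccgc
Bnip3 and P4ha2 held the most matches in their 300 bases, 5 and 4, and adjoining CACGT and ACGTG on opposite strands at Bnip3 share the palindrome CACGTG, which counts on each strand. The windows listed for Gzmg, Il3, Spin4, Btnl9 and Rnf128 held none of these letters.

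Across genes the motifs were common in every class. ACGTG or GCGTG was in a window of 69.8% of risen genes (315 of 451 matched to the table), 61.1% of fallen genes and 67.2% of the 9321 tested genes that matched, against 43.8% of all windows in the table. ACGTG alone was in 40.4% of risen, 23.8% of fallen and 29.5% of all matched tested genes, and in 19.6% of all windows. The shares of genes count a match in any listed window, so genes with several windows have more chances, while the shares of windows are per window. Among genes with 1 window, ACGTG was in 35.6% of risen, 21.8% of fallen and 26.4% of tested genes. ACGTG or GCGTG was in 67.1%, 60.2% and 64.1% of them. These shares are descriptions of letters in short windows, with no test, and a match is not a bound site.

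Genes of most steps of glycolysis rose in VHL-deficient day 11 cells. Upstream of the triose phosphates, 9 of 14 tested genes rose, with a median log2 fold change of 1.27, and downstream 6 of 12 rose and 1 fell, with a median of 1.23, against 0.07 over all tested genes. The hexokinase Hk2, which traps glucose in the cell, had 893, 998 and 1068 scaled counts in VHL-deficient libraries, against 67.5, 127 and 111 in WT libraries (log2 fold change 3.31, SE 0.41, adjusted p = 2.23e-05). Gpi1, which interconverts glucose and fructose phosphates, rose by 1.24 log2 units. The phosphofructokinases commit sugar to the pathway, and Pfkl, the liver-type subunit, had 4937, 4858 and 4948 against 961, 1109.8 and 901 (log2 fold change 2.31, adjusted p = 3.67e-05), beside Pfkm with a log2 fold change of 1.62. Pfkfb3, which makes the activator fructose 2,6-bisphosphate, had 713, 593 and 721 against 241, 216 and 157 (adjusted p = 0.00334). The aldolase Aldoc, known mainly from brain, had 1674, 1867 and 1597 against 129, 287 and 160.0 (log2 fold change 3.23), and WT replicate 2 was the highest of the WT libraries.

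In lower glycolysis, Tpi1, Gapdh, Pgk1, Pgam1, Eno1 and Pkm rose by 1.13 to 1.80 log2 units, and none of the 6 had overlapping groups. Pkm, pyruvate kinase, had 21421, 20864 and 20432 scaled counts in VHL-deficient libraries, against 5990.1, 8041 and 7972 in WT libraries (log2 fold change 1.52, SE 0.23, adjusted p = 2.99e-04). The enolases went in opposite directions. Eno1, the ubiquitous enolase, had 8892, 8962 and 8841 against 3375, 4652 and 4259.6 (log2 fold change 1.13, adjusted p = 0.0131). Eno3, the muscle enolase (chromosome 11, 70657202 to 70662513), had 32.5, 40.7 and 38.9 against 206, 224 and 287 and fell by 2.64 log2 units (SE 0.29, adjusted p = 6.82e-06), the largest fall among the better-expressed genes. Every VHL-deficient library was thus high for Eno1 and low for Eno3, though the Eno1 call was lost without VHL-deficient replicates 1 and 2 or WT replicate 1 (adjusted p 0.0519 to 0.0760). Eno1b, which is nearly identical to Eno1 in sequence, had a log2 fold change of 0.76 (adjusted p = 0.0970), and how reads were split between them is uncertain. Ldha, which reduces pyruvate to lactate, had 24223, 27246 and 24593 against 9821, 13673 and 17042 without overlap, yet missed the threshold (log2 fold change 0.94, SE 0.29, adjusted p = 0.0552), and Ldhb, the isoform known from oxidative tissue, had a log2 fold change of 1.32 (adjusted p = 0.0929). The Ldha result depended on the scaling. It was called under TMM scaling (adjusted p = 0.04) and under the scaling without ribosomal and mitochondrial genes (adjusted p = 0.022).

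Carriers of glucose and lactate followed. Slc2a3 (GLUT3), a high-affinity glucose carrier, had 13622, 16123 and 8943 scaled counts in VHL-deficient libraries and 1236, 2141 and 746 in WT libraries (log2 fold change 3.32, SE 0.59, adjusted p = 0.00131). Both groups varied by more than 1.5 times within themselves, with replicate 3 the lowest of each. Slc2a1 (GLUT1) had 1562, 1725 and 1532 against 289.9, 379.7 and 302 (log2 fold change 2.32). The lactate exporter Slc16a3 (MCT4) had 3621, 3823 and 3649 against 660.1, 688 and 425 (log2 fold change 2.68), and its chaperone Bsg, basigin, rose by 1.60 log2 units. The other carriers tested, Slc16a1 (the MCT1 lactate carrier), Slc2a6, Slc2a8 and Slc16a6, were not called by limma. Of these Slc2a6, a carrier of lysosomes, had 10.5, 16.1 and 17.5 against 49.2, 60.2 and 38.0 without overlap (log2 fold change -1.68, adjusted p = 0.244). Of the 8 tested members of the list, voom called 1 lower, while limma had none lower at an unadjusted p under 0.05.

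Glycogen genes rose on the side of synthesis and on that of breakdown, 6 of 15 tested, with a median log2 fold change of 0.48. Pygl, glycogen phosphorylase of the liver type (chromosome 12, 70190811 to 70231488), had 1644, 1586 and 1208 scaled counts in VHL-deficient libraries and 47.4, 190.2 and 73.5 in WT libraries (log2 fold change 4.05, SE 0.40, adjusted p = 1.44e-06). Gys1, the glycogen synthase of muscle and most tissues, had 565, 552 and 428 against 72.9, 78.5 and 70.0 (log2 fold change 2.78, adjusted p = 2.30e-04). Both groups were tight for Gys1, whereas WT Pygl was highest in replicate 2. The branching enzyme Gbe1 and the phosphoglucomutase Pgm2 rose by 2.09 and 2.18 log2 units. Ppp1r3b, which targets a phosphatase to glycogen, had 456, 864 and 406 against 27.4, 216 and 36.3, with replicate 2 the highest of each genotype (adjusted p = 0.0345), and its call was lost without VHL-deficient replicates 1, 2 and 3 or WT replicates 1 and 3 (adjusted p 0.0637 to 0.156).

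The steps that lead pyruvate and hexose away from glycolysis held few calls. Pdk1, the kinase that inhibits pyruvate dehydrogenase, was the 1 risen gene of 14 in that list, with 1281, 1353 and 1146 scaled counts in VHL-deficient libraries, against 328, 390.0 and 282 in WT libraries (log2 fold change 1.92, adjusted p = 0.00618), and Pdhx, which holds the complex together, fell (46.4, 53.8 and 48.0 against 120.3, 82.4 and 119, adjusted p = 0.0218), a call that was lost without VHL-deficient replicates 1, 2 and 3 or WT replicates 1 and 3 (adjusted p 0.0604 to 0.103). In the pentose phosphate pathway Taldo1, transaldolase, fell by 0.90 log2 units (504, 486 and 442 against 917, 793 and 975), and G6pdx, Pgls, Pgd, Rpia, Rpe and Tkt, the other members tested, were not called. In the TCA cycle 19 of 21 genes lay lower, against 46.1% of all tested genes, and 3 fell, against 5 under TMM scaling and 7 under the scaling without ribosomal and mitochondrial genes. Idh2, the mitochondrial NADP-dependent isocitrate dehydrogenase, had 23.2, 23.8 and 57.2 against 137, 112 and 121 (log2 fold change -1.92, adjusted p = 0.00431), and Idh3a and the fumarase Fh1 fell by 0.88 and 0.77 log2 units.

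Mitochondrial transcripts made up a smaller share of VHL-deficient libraries. They took 2.89%, 3.32% and 3.06% of reads in the VHL-deficient libraries, against 8.13%, 9.26% and 10.01% in the WT libraries, a difference of -6.05 percentage points. The groups did not overlap, and the two-sided exact permutation p was 0.1, the smallest that 3 against 3 libraries allow. Without the ribosomal RNA gene in the denominator, the means were 4.50% in VHL-deficient and 13.0% in WT libraries. By gene, 7 of 8 tested messages of the mitochondrial genome fell, with a median log2 fold change of -1.41. The complex I subunit mt-Nd5 had 2049, 2605 and 2369 scaled counts in VHL-deficient libraries, against 6094, 6982 and 9145 in WT libraries (log2 fold change -1.65, adjusted p = 2.79e-04). Cytochrome b, mt-Cytb, had 1226, 1807 and 1380.1 against 3337, 4468 and 5277 (log2 fold change -1.56). mt-Nd2 had 550.4, 572 and 537 against 841, 1088 and 1326 and was not called (adjusted p = 0.0891). It was called under the scaling without ribosomal and mitochondrial genes (adjusted p = 0.046) and not under TMM scaling (adjusted p = 0.0755). All 8 messages were thus low in all 3 VHL-deficient libraries, and the nuclear RNAs Malat1 and Neat1, whose share can move with RNA quality, had log2 fold changes of 0.09 (adjusted p = 0.902) and 1.20 (adjusted p = 0.0507). Of the 3 nuclear long RNAs tested, limma called none, and 2 were higher at an unadjusted p under 0.05. Voom called 1 higher, and in 2 the groups did not overlap. The part of RNA quality in the mitochondrial result was not tested.

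**Figure D3:**
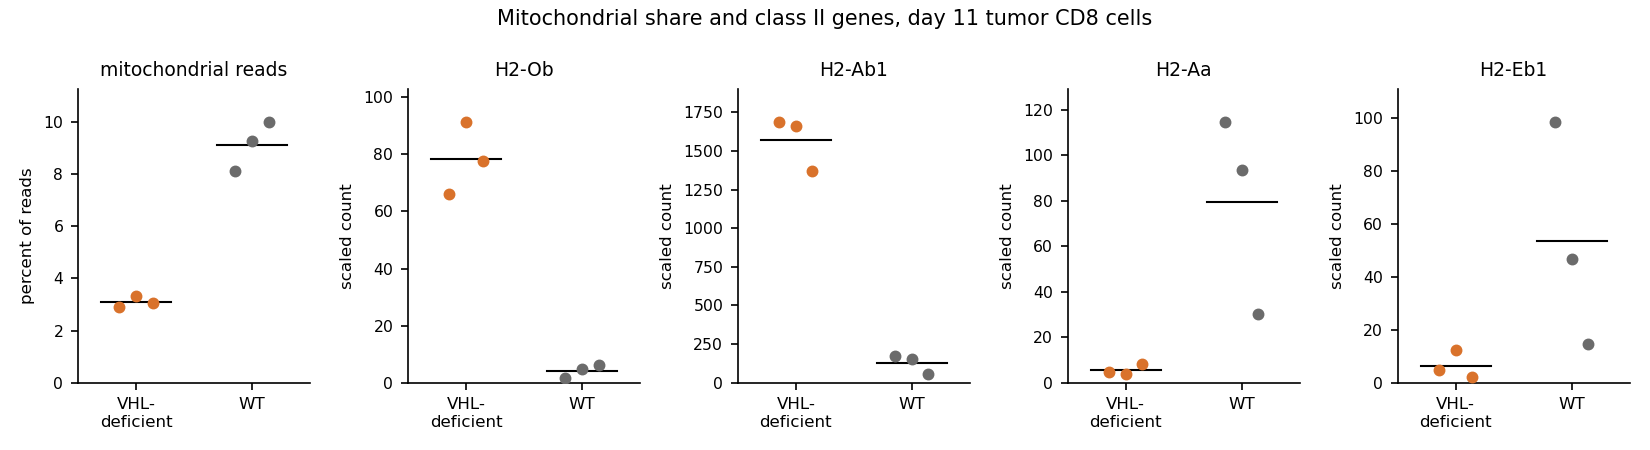
The left panel plots the percent of reads from the mitochondrial genome in each day 11 library, and the other 4 panels plot scaled counts of 4 class II genes, with VHL-deficient replicates 1 to 3 (orange) to the left of WT replicates 1 to 3 (grey), bars at the means and axes from 0. The mitochondrial share is at or below 3.32% in VHL-deficient libraries and at or above 8.13% in WT ones; H2-Ob and H2-Ab1 are high in VHL-deficient libraries, and H2-Aa and H2-Eb1 in WT ones.

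The nuclear subunits of the respiratory chain lay lower with small changes in each gene. In complex I, 35 of 36 subunits lay lower (median log2 fold change -0.64), yet limma called none of them, with 10 lower at an unadjusted p under 0.05 and 1 called lower by voom, and 1 was called lower by limma under each of the other scalings. Complexes III, IV and V lay lower in all of their 10, 12 and 15 tested genes, with medians of -0.77, -0.72 and -0.62. The genes that fell were Cyc1 (cytochrome c1, complex III), Cox5a and Ndufa4 (complex IV) and Atp5b (the catalytic beta subunit of ATP synthase), by 0.86, 1.24, 1.51 and 0.85 log2 units. Ndufa4 had 125, 86.1 and 123 scaled counts in VHL-deficient libraries, against 295, 252 and 421 in WT libraries (adjusted p = 0.0164). In both genotypes Ndufa4 varied, and the highest VHL-deficient library stayed under the lowest WT one, but its call was lost without VHL-deficient replicate 2 or WT replicate 3 (adjusted p 0.0970 to 0.0999). Of the mitochondrial ribosomal proteins, 72 of 77 lay lower (median -0.40) and Mrps22 fell (adjusted p = 0.0381). Under TMM scaling and under the scaling without ribosomal and mitochondrial genes 3 and 4 of them were called lower. Genes that copy, transcribe and process mitochondrial DNA and RNA had a median of -0.28, with none of 23 called by limma or voom and 1 at an unadjusted p under 0.05.

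Of 11 tested genes of mitophagy and mitochondrial HIF targets 5 rose and 1 fell, among them the mitophagy receptors Bnip3 and Bnip3l, which mark mitochondria for degradation. Bnip3 had 3157, 3336 and 2736 scaled counts in VHL-deficient libraries and 171, 281 and 169 in WT libraries (log2 fold change 3.92, SE 0.28, adjusted p = 2.66e-08). Bnip3l (NIX), its relative, had 1637, 1574 and 1457 against 421, 354 and 355 (log2 fold change 2.05, adjusted p = 8.88e-08). Both were high in all 3 VHL-deficient replicates, with little spread. Higd1a, a small protein of the inner membrane, and Mxi1, an antagonist of MYC, rose by 1.5 and 1.56 log2 units. The kinase Pink1 and the mitochondrial protease Lonp1 had log2 fold changes of -0.63 (adjusted p = 0.372) and 0.56 (adjusted p = 0.246), and Fundc1, another mitophagy receptor, was not called.

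Genes of protein synthesis lay lower too, and the number called depended on the scaling. All 86 tested cytosolic ribosomal protein genes had a negative log2 fold change, with a median of -0.72, and 32 had an unadjusted p under 0.05. The 1 call, Rps3a3, is close in sequence to another ribosomal protein gene and is uncertain, while 2 fell under TMM scaling and 7 under the scaling without ribosomal and mitochondrial genes. Cytosolic tRNA synthetases had a median of -0.34, with no call by limma, 4 of 20 lower at an unadjusted p under 0.05 and 1 called lower by voom. Proteasome genes lay lower in 45 of 47 (median -0.50), and the lid subunits Psmd13 and Psmd14 and the immunoproteasome subunit Psmb9 fell, at log2 fold changes of -0.70 to -1.05. Under the scaling without ribosomal and mitochondrial genes 6 proteasome genes fell, and the ribosomal and proteasome medians kept their sign.

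Of 17 tested genes of serine, one-carbon and ATF4 metabolism 2 rose and 3 fell, and 1 rose and 2 fell under both other scalings. Mthfd2, Phgdh and Psat1, which make serine and mitochondrial one-carbon units, fell, while Mthfd1l, which completes the mitochondrial branch, and Trib3, a pseudokinase induced by ATF4, rose. Mthfd2 had 290.3, 287 and 353 scaled counts in VHL-deficient libraries, against 655, 785 and 1059 in WT libraries (log2 fold change -1.40, SE 0.30, adjusted p = 0.00586). Mthfd1l had 1503, 1480.3 and 1682 against 487, 604 and 524 (log2 fold change 1.53, SE 0.46, adjusted p = 0.0471). Every VHL-deficient library was low for the first gene and high for the second, and the Mthfd1l call was lost without VHL-deficient replicates 1, 2 and 3 or WT replicates 1, 2 and 3 (adjusted p 0.0839 to 0.140). It was also lost under both other scalings (adjusted p 0.0592 and 0.0939). Phgdh fell by 1.06 log2 units, Psat1 by 1.02 (adjusted p = 0.0499; 0.0651 under TMM scaling, 0.0656 under the scaling without ribosomal and mitochondrial genes and 0.0859 with a filter of 1 scaled count), and Trib3 rose by 1.67. Amino acid transporters had a median of -0.13 over 13 genes, with no call by limma or voom and 1 higher and 1 lower at an unadjusted p under 0.05.

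Of all gene lists examined, those of cell division held the most fallen members by number. By share of tested members the mitochondrial genome messages led, with 7 of 8 fallen. Of 69 tested genes of mitosis and the kinetochore 50 fell and all lay lower, with a median log2 fold change of -1.95, and of 44 genes of DNA replication and nucleotide supply 24 fell and all lay lower, with a median of -1.31. The kinase Cdk1, which drives entry into mitosis, had 173, 158 and 166 scaled counts in VHL-deficient libraries, against 615, 793 and 879 in WT libraries (log2 fold change -2.18, SE 0.43, adjusted p = 0.00312). Its partners Ccnb1 and Ccna2 fell by 2.54 and 2.29 log2 units. The passenger complex that corrects attachments to the spindle was represented by Birc5, Cdca8 and Aurkb, which fell, at log2 fold changes of -2.15 to -2.46, and Birc5 had 88.2, 74.6 and 90.0 against 414, 442 and 519.7. The VHL-deficient libraries held the 3 lowest values in Cdk1 and Birc5. The outer kinetochore was represented by Ndc80, Nuf2, Spc25 and Knl1, at log2 fold changes of -2.0 to -2.28, the checkpoint protein Mad2l1 at -2.10, the condensin subunit Ncapg at -1.95 and the anaphase ligase factors Cdc20 and Ube2c at -2.15 and -2.39. Cks1b, Cdca5, Esco2, Hmmr, Melk, Nusap1 and Stmn1, known from mitotic kinases, cohesion and the spindle, completed the leading fallen genes at log2 fold changes of -2.22 to -2.44. The Hmmr call was lost under the scaling without ribosomal and mitochondrial genes (adjusted p = 0.0519).

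In S phase genes, Rrm2, the ribonucleotide reductase subunit that sets supply of deoxynucleotides, had 555, 412 and 435 scaled counts in VHL-deficient libraries, against 1999, 2331 and 2048 in WT libraries (log2 fold change -2.19, SE 0.42, adjusted p = 0.00282). Tyms, thymidylate synthase, had 154, 133 and 166 against 558, 559 and 572 (log2 fold change -1.90). The groups were tight and far apart in both. The replication factors Rpa2, Pola1, Prim1 and Rfc4 fell, at log2 fold changes of -1.46 to -1.76. Of 40 tested histone genes 6 fell, among them the variants H2afx, H2afv and H2afz at log2 fold changes of -1.30 to -1.41. Histone genes of the clusters are close copies of each other, so their single values are uncertain.

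Regulators of the cycle went both ways, 4 up and 4 down of 35 tested. Those that rose were Cdkn1b, the p27 inhibitor of CDKs, Ccng2, a cyclin known from quiescent cells, Btg2, an antiproliferative gene, and Mxi1, at 0.98 to 1.56 log2 units. The Btg2 call was lost under the scaling without ribosomal and mitochondrial genes (adjusted p = 0.0511). Cdkn1b had 639.8, 545 and 396 scaled counts in VHL-deficient libraries, against 297, 263 and 229 in WT libraries (adjusted p = 0.0344), a call that was lost without VHL-deficient replicates 1 and 2 or WT replicates 1, 2 and 3 (adjusted p 0.0619 to 0.161). Those that fell were Ccne1 (cyclin E1), E2f2, the MYC-network factor Mxd3 and Cdkn2c, the p18 inhibitor, at log2 fold changes of -1.43 to -2.09. Ccne1 had 135, 57.6 and 128 against 416, 409.8 and 460.0 (adjusted p = 0.00157), and VHL-deficient replicate 2 was the lowest library.

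**Figure D4:**
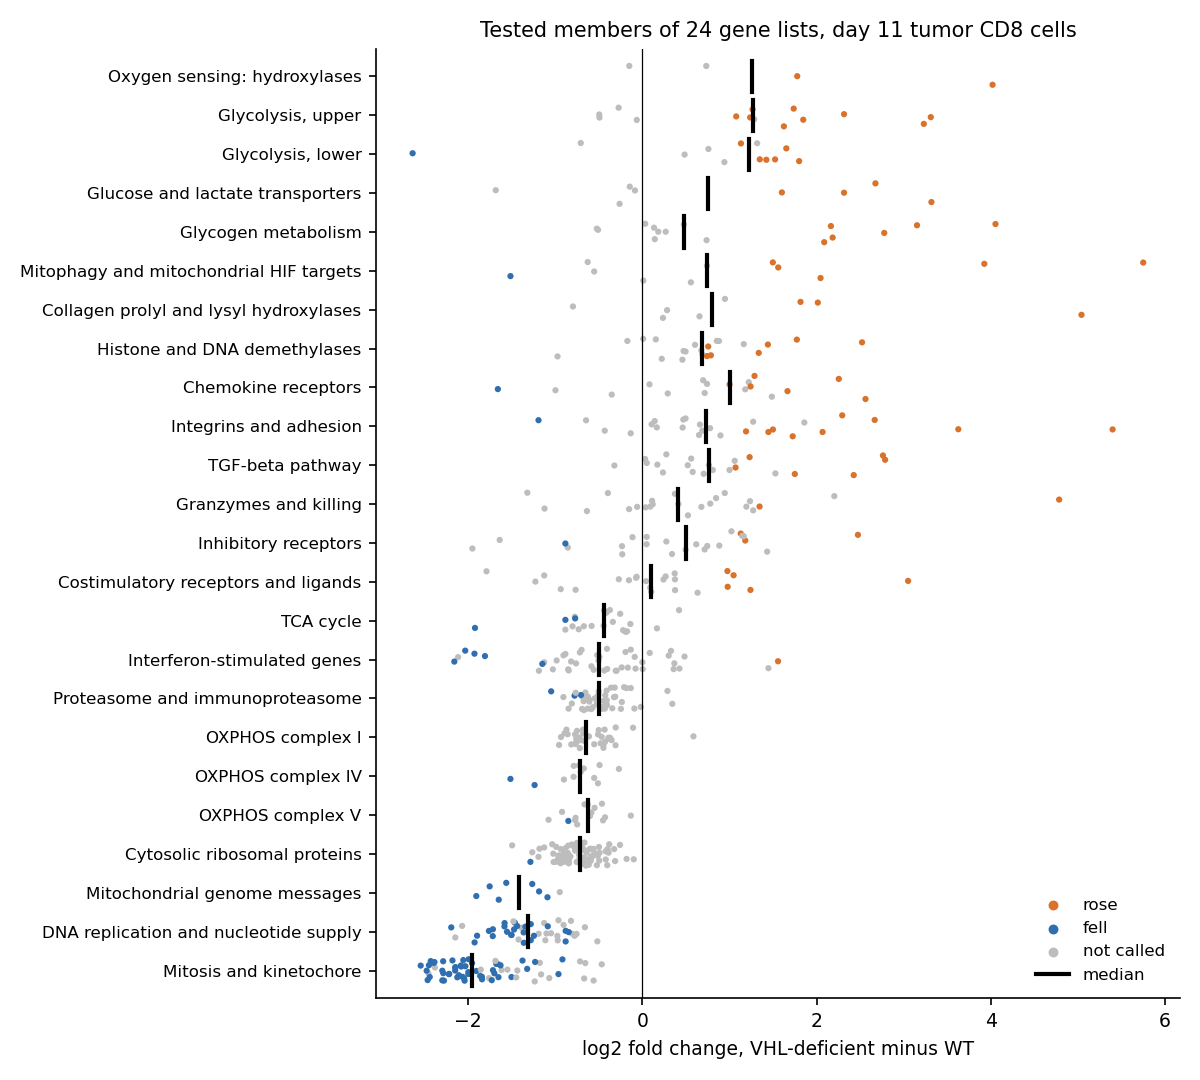
Log2 fold changes, VHL-deficient minus WT in day 11 tumor, of every tested member of 24 gene lists, 1 list to a line, with risen members in orange, fallen members in blue, others in grey, and a black tick at the median. Medians of the glycolysis lists lie above 1, those of mitosis and replication genes at -1.95 and -1.31, and the ribosomal and respiratory lists lie lower with few coloured points.

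Oxygen-dependent enzymes other than the EGLN family rose in several classes. Of 8 tested collagen hydroxylases 3 rose. P4ha1, the widespread prolyl hydroxylase subunit, had 2894, 2833 and 2373 scaled counts in VHL-deficient libraries, against 649, 1038 and 659.8 in WT libraries (log2 fold change 1.82, adjusted p = 2.21e-04). Plod2, which hydroxylates lysines of collagen telopeptides, had 496, 834 and 613 against 149.5, 244 and 104 (log2 fold change 2.01). With P4ha2, all 3 separated the genotypes in every library, while the shared subunit P4hb had a log2 fold change of 0.66 (adjusted p = 0.135). Of 21 demethylases of histones and DNA 7 rose, a count that was 5 under TMM scaling and 3 under the scaling without ribosomal and mitochondrial genes. Kdm5b, which removes methyl groups from lysine 4 of histone H3, had 791, 939 and 934 against 157, 199.8 and 115 (log2 fold change 2.52, SE 0.33, adjusted p = 4.08e-05). Kdm4b and Kdm3a, which act on lysine 9, Jmjd6, a JmjC-domain oxygenase, Kdm2a and the DNA demethylase Tet2 rose by 0.74 to 1.77 log2 units, of which Kdm3a, Kdm2a and Tet2 were not called under that scaling (adjusted p 0.0877 to 0.0917).

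Sialyltransferases and regulators of G protein signalling each had 3 risen members. St3gal1, which sialylates O-glycans, had 329, 289 and 264 scaled counts in VHL-deficient libraries, against 108, 78.5 and 102 in WT libraries (log2 fold change 1.61), and St8sia1, which makes the ganglioside GD3, rose by 1.15 log2 units, beside St6gal1. The median of 13 tested sialyltransferases was -0.25, so most of the list did not share the direction of these 3. St8sia1 was not called under the scaling without ribosomal and mitochondrial genes (adjusted p = 0.0542). Rgs11, a GTPase activator for Gi and Go proteins known from neurons and retina, had 1486, 1578 and 1229.9 against 60.2, 74.5 and 59.7 (log2 fold change 4.44, SE 0.32, adjusted p = 2.66e-08). Rgs10 and Rgs1, which limit signals of chemokine receptors, rose by 1.90 and 1.33 log2 units. Rgs2 and Rgs16, also present in T cells, had log2 fold changes of 0.16 and 0.24 without a call.

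Adhesion genes rose in VHL-deficient day 11 cells, 9 of 26 tested, and 1 fell. Cdh1, E-cadherin, had 283, 351 and 252 scaled counts in VHL-deficient libraries and 1.82, 63.4 and 0.865 in WT libraries (log2 fold change 5.40, SE 1.05, adjusted p = 0.00294). Itgae, the alpha chain of CD103 that binds E-cadherin, had 192, 72.2 and 124 against 14.6, 10.3 and 4.32 (adjusted p = 3.06e-04). WT replicate 2 held most of the WT reads of Cdh1, and VHL-deficient replicate 1 was the highest for Itgae. Epcam, an epithelial adhesion molecule, L1cam, a neural one, the collagen receptor chain Itga2 and the vitronectin receptor chain Itgb3 rose by 1.5 to 2.67 log2 units. Itga4, a chain of the VCAM1 receptor, had 259, 356 and 292 against 766, 789.5 and 533 and fell by 1.19 log2 units (adjusted p = 0.00431).

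Genes of the TGF-beta superfamily rose in 6 of 21 tested cases, and 20 lay higher. The ligand Tgfb3 had 94.1, 111 and 69.4 scaled counts in VHL-deficient libraries, against 9.12, 15.1 and 13.8 in WT libraries (log2 fold change 2.76, adjusted p = 8.60e-04). Furin, a protease that cleaves TGF-beta precursors, rose by 1.07 log2 units, the receptors Acvrl1, Acvr1b and the co-receptor Tgfbr3 by 1.75 to 2.79, and Smurf2, a ligase that removes receptors and SMADs, by 1.23. Acvr1b had 17.4, 32.3 and 16.0 scaled counts in VHL-deficient libraries, against 7.29, 3.17 and 6.92 in WT libraries, and Tgfbr3 had 43.0, 27.7 and 44.2 against 9.12, 7.13 and 3.46, so both were low in every WT library.

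Chemokine receptors rose in 6 of 17 tested cases and 1 fell. Ccr1, a receptor for CCL3 and CCL5, had 882, 1001 and 549.7 scaled counts in VHL-deficient libraries, against 96.6, 215 and 112 in WT libraries (log2 fold change 2.56, SE 0.35, adjusted p = 7.47e-05). Cxcr3, the receptor for interferon-induced chemokines, had 186, 119.9 and 229.5 against 671, 338 and 717 (log2 fold change -1.66, SE 0.33, adjusted p = 0.00381). VHL-deficient libraries were thus high for Ccr1 and low for Cxcr3 without overlap. Cxcr4, Xcr1, the sphingosine phosphate receptor S1pr2, the atypical receptor Ccrl2 and Cxcr6 rose by 1.00 to 2.25 log2 units. Of 7 chemokines limma called none, with 3 higher at an unadjusted p under 0.05 and 1 called higher by voom, and Xcl1 had a log2 fold change of -0.13 (adjusted p = 0.913).

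Genes of killing rose in 2 of 23 tested cases and cytokines in 4 of 17, with 4.47% of all tested genes risen. Some of these changes were large. Gzmg, a granzyme whose gene lies among close relatives in a cluster and may share reads with them, had 876, 3691 and 1338 scaled counts in VHL-deficient libraries, against 27.4, 195 and 36.3 in WT libraries (log2 fold change 4.78, SE 1.32, adjusted p = 0.0326). Prf1, perforin, had 17809.9, 24604 and 12684 against 5474, 13492 and 4583, where WT replicate 2 overlapped the VHL-deficient range (log2 fold change 1.35, SE 0.39, adjusted p = 0.0388). Gzmb had 64780.2, 73334 and 45253 against 16109, 40696 and 23253, without overlap, and was not called (adjusted p = 0.0826). Replicate 2 of each genotype was the highest for all 3 genes. The call of Gzmg was lost without VHL-deficient replicates 1, 2 and 3 or WT replicates 1 and 3 (adjusted p 0.0649 to 0.149), and that of Prf1 was lost without VHL-deficient replicates 1 and 2 or WT replicates 1 and 3 (adjusted p 0.115 to 0.217) or under the scaling without ribosomal and mitochondrial genes (adjusted p = 0.0563). Il3, a growth factor for myeloid cells, had 474, 806 and 841 against 1.82, 119.7 and 65.7 (log2 fold change 4.60, adjusted p = 0.0178), and Il2, the T cell growth factor, had 58.1, 109 and 182 against 7.29, 0.793 and 19.0 (log2 fold change 3.99, adjusted p = 0.00723). The WT libraries had few reads of Il2 and a wide range of Il3, whose call was lost without VHL-deficient replicates 2 and 3 or WT replicate 1 (adjusted p 0.0612 to 0.118). Csf2 (GM-CSF) and Vegfa, the angiogenic factor, rose by 3.12 and 3.54 log2 units. Ifng had 1618, 1369.6 and 1414 against 2039, 2123 and 1272 with overlap (adjusted p = 0.736).

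Receptors that restrain or help T cells rose in part. Of 23 inhibitory receptors 3 rose and 1 fell. Cd101 had 498, 349.7 and 462 scaled counts in VHL-deficient libraries, against 69.3, 64.2 and 102 in WT libraries (log2 fold change 2.47, SE 0.28, adjusted p = 7.59e-06). Vsir (VISTA) and Havcr2 (TIM-3) rose by 1.18 and 1.13 log2 units, Cd5, which damps receptor signals, fell by 0.88, and Pdcd1 (PD-1) had 2909.9, 3839 and 3069 against 2640.4, 5275 and 3109.5, with full overlap (adjusted p = 0.878). Havcr2 was not called under the scaling without ribosomal and mitochondrial genes (adjusted p = 0.0758). Of 23 costimulatory genes 5 rose: the ligand Tnfsf9 and its receptor Tnfrsf9 (4-1BB), Tnfsf8 (CD30 ligand), Tnfrsf18 (GITR) and Slamf7, at 0.98 to 3.05 log2 units. Tnfsf9 had 258, 349.7 and 233 against 56.5, 27.7 and 21.6 (adjusted p = 0.00174). Among interleukin receptors the decoy receptor Il1r2 and Il18r1 rose by 1.52 and 0.66, and Ifnar2, a chain of the type I interferon receptor, fell by 1.32. The Il18r1 call was lost under both other scalings (adjusted p 0.0514 and 0.103).

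Transcription factors of T cell fate were called in 3 cases up and 3 down of 36. Prdm1 (BLIMP1), which drives terminal effector and resident states, had 329, 365 and 251 scaled counts in VHL-deficient libraries, against 93.0, 155 and 61.4 in WT libraries (log2 fold change 1.68, SE 0.33, adjusted p = 0.00296). Rbpj, the DNA-binding factor of Notch signalling, and Runx3, a factor of the CD8 lineage, rose by 1.12 and 0.81 log2 units. The Runx3 call was lost under the scaling without ribosomal and mitochondrial genes (adjusted p = 0.0519). Eomes, a T-box factor of memory and NK cells, had 1.16, 5.38 and 2.29 against 45.6, 55.5 and 33.7 (log2 fold change -3.66, SE 0.82, adjusted p = 0.00878). Myb, a factor of stem-like T cells, had 13.9, 26.9 and 41.2 against 149.5, 99.1 and 167 (log2 fold change -2.39, SE 0.50, adjusted p = 0.00529). Both were low in all VHL-deficient libraries, and the NK marker Ncr1 beside Eomes stood at 0, 0 and 0 against 1.82, 30.9 and 4.32, whose part in the Eomes result was not tested. The Eomes call was lost without VHL-deficient replicate 1 (adjusted p = 0.0562). Irf8 fell by 0.97 log2 units, and Tcf7 (TCF1) had 89.4, 35.4 and 101 against 120.3, 91.2 and 249, with overlap (adjusted p = 0.243). Of the immediate early genes Jun, Egr3 and Ier3 rose by 0.99 to 1.56 log2 units, while the residency marker Cd69 had 3661, 3054 and 4138 against 3472, 1723 and 2166 (adjusted p = 0.460). The Jun call was also lost under that scaling without ribosomal and mitochondrial genes (adjusted p = 0.07).

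A few survival genes rose, as did Nt5e. Bcl2, which blocks the mitochondrial path of apoptosis, had 1575, 1528 and 1419 scaled counts in VHL-deficient libraries, against 737, 634 and 594 in WT libraries (log2 fold change 1.21, SE 0.18, adjusted p = 2.84e-04). Cflar (c-FLIP), which blocks caspase-8, and the inhibitor of apoptosis Birc3 rose by 0.99 and 0.97 log2 units, so 3 of 24 members rose. Nt5e (CD73), which makes adenosine from AMP outside the cell, had 575, 669 and 547 against 117, 72.9 and 49.3 (log2 fold change 2.97, SE 0.47, adjusted p = 3.80e-04). Both genes separated the genotypes without overlap. Tfrc, the transferrin receptor, the zinc and iron carrier Slc39a14, the peroxiredoxin Prdx4, the kinase Pim2 and Hilpda, which blocks lipolysis at lipid droplets, rose by 1.01 to 1.80 log2 units. Tfrc and Slc39a14 were the 2 risen of 13 genes of metal transport, of which 1 was called under TMM scaling and none under the scaling without ribosomal and mitochondrial genes (adjusted p 0.0627 to 0.0930). The protease Ctse, cathepsin E, fell by 1.70 log2 units and the acyl-CoA dehydrogenase Acadm by 0.85. Cholesterol and fatty acid synthesis had no call by limma among 25 genes (median -0.09), 3 higher at an unadjusted p under 0.05 and 1 called higher by voom.

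Interferon-stimulated genes lay lower in 34 of 45 tested cases, 5 fell and Isg20, an exonuclease, rose by 1.56 log2 units. Oasl2 had 4.64, 6.92 and 8.39 scaled counts in VHL-deficient libraries, against 29.2, 51.5 and 22.5 in WT libraries (log2 fold change -2.16, SE 0.42, adjusted p = 0.00312). Usp18, which restrains interferon receptor signals, Ifit3, Bst2 (tetherin) and Ifi27l2a fell, at log2 fold changes of -1.15 to -2.03. Of the NK lectin receptors and Ly6c genes 4 of 17 fell. Ly6c2, a marker of central memory and effector cells, had 1197, 1028 and 1067 against 3501, 3073 and 3939.7 (log2 fold change -1.67, SE 0.37, adjusted p = 0.00853), and its near copy Ly6c1 had 12.8, 6.92 and 9.91 against 63.8, 53.1 and 56.2, with reads that the pair may share, and its call was lost without VHL-deficient replicate 2 (adjusted p = 0.0547). Klrg1, a marker of short-lived effectors, had 4.64, 5.38 and 0.762 against 43.8, 61.0 and 13.0 (adjusted p = 0.0175), a call that was lost without VHL-deficient replicate 3 or WT replicates 1 and 2 (adjusted p 0.0766 to 0.0931), and Klrb1f fell by 2.41 log2 units. NK-cell markers moved with these genes: the 6 markers summed to 221 to 446 in VHL-deficient and 446 to 910.0 in WT libraries, and Ncr1 had no read in any VHL-deficient library. Their part in the lower lectin genes was not tested.

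Class II genes of the major histocompatibility complex went in opposite directions side by side on chromosome 17. H2-Ob (34238903 to 34254414), the beta chain of the H2-O modulator, had 66.2, 91.5 and 77.8 scaled counts in VHL-deficient libraries, against 1.82, 4.76 and 6.05 in WT libraries (log2 fold change 4.02, SE 0.54, adjusted p = 6.62e-05). The next annotated gene, H2-Ab1 (34257689 to 34269419), the beta chain of I-A, had 1689, 1660.2 and 1372 against 173, 151 and 53.6 (log2 fold change 3.79, SE 0.46, adjusted p = 2.10e-05). Both were high in all 3 VHL-deficient libraries. H2-Aa (34282744 to 34287823), the alpha chain that pairs with H2-Ab1, had 4.64, 3.84 and 8.39 against 115, 93.5 and 30.3 (log2 fold change -3.46, SE 0.87, adjusted p = 0.0195), and H2-Eb1 (34305867 to 34316674) had 4.64, 12.3 and 2.29 against 98.5, 46.8 and 14.7 (log2 fold change -2.75, SE 0.80, adjusted p = 0.0422). WT replicate 3 was the lowest WT library for H2-Ab1, H2-Aa and H2-Eb1 alike. Of 16 tested genes of class II and antigen presentation, 2 rose and 2 fell at day 11. In unsplit day 7 tumor cells 2 rose and none fell, so H2-Aa and H2-Eb1 were not called lower there. The H2-Aa call was lost without VHL-deficient replicates 1 and 2 or WT replicates 1 and 2 (adjusted p 0.0711 to 0.0942), and the H2-Eb1 call was lost without VHL-deficient replicates 1 and 3 or WT replicates 1 and 2 (adjusted p 0.110 to 0.201). Cd74 encodes the invariant chain that class II molecules need for assembly. It had 48.8, 80.7 and 77.0 against 162, 126 and 34.6 with overlap (adjusted p = 0.746). On the other side of H2-Ob, the nearest tested gene, Tap2, had a log2 fold change of 0.11 without a call. Psmb8, which lies beyond Tap2, had one of -0.67, also without a call. Of the 9 dendritic-cell markers 6 were tested, of which 4 lay higher and 2 lower. H2-Ab1 and Xcr1 rose, H2-Aa and H2-Eb1 fell, and the remaining members Itgax and Zbtb46 were not called. Flt3, Clec9a and Siglech were at most 2.38 scaled counts in every library. The B-cell marker Ms4a1 was at most 2.32 scaled counts and Cd79a at most 3.65, while Ighm, the immunoglobulin heavy chain gene, had 75.5, 38.4 and 111 against 425, 294 and 562 (log2 fold change -2.57, SE 0.37, adjusted p = 1.71e-04). The macrophage marker Lyz2 had 3.48, 1.54 and 4.57 against 18.2, 48.4 and 7.78, highest in WT replicates 1 and 2, and all 10 macrophage and monocyte markers summed to 58.7 to 75.3 in VHL-deficient and 96.8 to 148 in WT libraries. The 9 dendritic-cell markers, H2-Ab1 among them, summed to 1880.2 to 2277 against 319 to 764, and the 7 B-cell and plasma-cell markers, Ighm among them, to 158 to 212 against 437 to 626. The part of other cells in the class II and Ighm results was not tested.

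A set of genes was close to silent in 1 genotype and read in the other. Of the risen genes, 55 had at most 3 reads in each WT library, and of the fallen genes 4 had at most 3 reads in each VHL-deficient library. The share of all tested genes with so few reads is not given here, so these counts are not compared. Such genes could reach the filter of 10 scaled counts only through libraries outside the low genotype at day 11. The libraries of the high genotype are among these. The genes were also picked as called and as low in 1 genotype. Their adjusted p-values, ratios and intervals thus describe them and are no further support. WT replicate 1 was the shallowest day 11 library (3770210 reads, 1.82 scaled counts per read), which makes the limit of 3 reads looser there. Tmem119, a membrane protein best known as a marker of microglia, had 288, 954 and 154 scaled counts in VHL-deficient libraries, against 0, 0.793 and 0 in WT libraries, 1691 reads against 1 read in all. The ratio was 1444 with an exact 95% counting interval of 259 to 57067 (adjusted p = 7.33e-07). Selenbp1, a selenium-binding oxidase, had 113, 154 and 87.7 against 0, 2.38 and 0.865. Grb10, an adaptor that binds the insulin and IGF1 receptors and limits their signal, had 154, 82.2 and 65.6 against 0, 0 and 1.73, a ratio of 139 (interval 38.2 to 1154) on 326 reads against 2. Its receptor Igf1r rose in the same libraries. The zinc finger gene Zfp618 had 41.8, 46.9 and 39.6 against no read in WT libraries and was at least 12.3-fold higher against a floor of 3 reads per library. The carboxypeptidase Cpq, Tmem51, Fam183b, the potassium channel subunit Kcnq3 and the kinesin Kifc3 were of the same kind, at means of 42.0, 40.6, 38.6, 37.4 and 30.8 scaled counts in VHL-deficient libraries and 1.45, 0.793, 2.11, 2.06 and 0.264 in WT libraries. Ak3l2-ps, a pseudogene of the adenylate kinase family, rose as well, and its reads may belong to a related gene such as Ak4.

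In the other direction Art2b, a surface enzyme that attaches ADP-ribose to proteins, had no read in any VHL-deficient library, against 20.1, 19.8 and 24.2 scaled counts in WT libraries. It was at least 7.93-fold higher in WT against the floor of 3 reads per library (adjusted p = 4.46e-06), and its close paralog may share reads with it. Dapl1, a gene known from naive and memory T cells, had 0, 0 and 0.762 in VHL-deficient libraries against 18.2, 10.3 and 33.7 in WT libraries, and its call was lost without VHL-deficient replicate 2 or WT replicate 3 (adjusted p 0.0526 to 0.0667). Art2b was steady across the WT libraries, whereas Dapl1 varied more than 3 times. The mitochondrial carrier Slc25a35 had 3.48, 0 and 0 against 18.2, 11.1 and 7.78, and Tnfrsf13c, the BAFF receptor, had 0, 0 and 0 against 9.12, 9.51 and 6.05, at least 3.06-fold higher in WT.

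Against the 4 unsplit tumor libraries of day 7 (2 of each genotype), the day 11 response kept its direction in most genes. There 208 of the 641 genes risen at day 11 also rose (32.4% of the day 11 genes and 86.3% of the day 7 genes, with 1.68% of tested genes risen at day 7), and 24 of the 343 fallen genes also fell (7.0% and 75%, with 0.223% of tested genes fallen at day 7). The sign was the same in 629 of the 641 and 338 of the 343 genes. The 273 day 7 calls became 94 or 117 when VHL-deficient replicate 1 or 2 of day 7 was left out, and 131 when WT replicate 2 was. Mgarp had 805 and 687 scaled counts in VHL-deficient day 7 tumor libraries, against 10.9 and 11.8 in WT ones, and Egln3 had 2340.1 and 2196 against 122 and 125. Both lay near their day 11 levels in each genotype. Across all tested genes the 2 log2 fold changes had a Pearson correlation of 0.664, with no shared library but 1 shared variance model, and genes are not independent replicates.

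In cell division genes the day 7 difference was smaller by value, and the interaction with day was not called. The median log2 fold change of the mitosis genes was -1.95 at day 11 and -0.93 at day 7, and of the replication genes -1.31 and -0.59, and none of either list fell at day 7. Cdk1 had 375 and 376 scaled counts in VHL-deficient day 7 libraries, against 551 and 1148 in WT ones (log2 fold change -1.08, adjusted p = 0.372). The interaction of genotype with day was called for none of 14327 genes by limma or by voom. In limma 268 genes (1.87%) had an unadjusted p under 0.05, among them 6 of 69 mitosis and 4 of 44 replication genes. Other lists held such genes too: 4 of 16 genes of class II and antigen presentation, 3 of 17 cytokines and 3 of 6 dendritic-cell markers. The dendritic-cell markers share members with the class II list. For Cdk1 the interaction was -1.10 log2 units (unadjusted p = 0.120). The position codes in the library titles end in 2 for these day 7 libraries and in 3 for the day 11 ones, so day and position cannot be told apart.

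**Figure D5:**
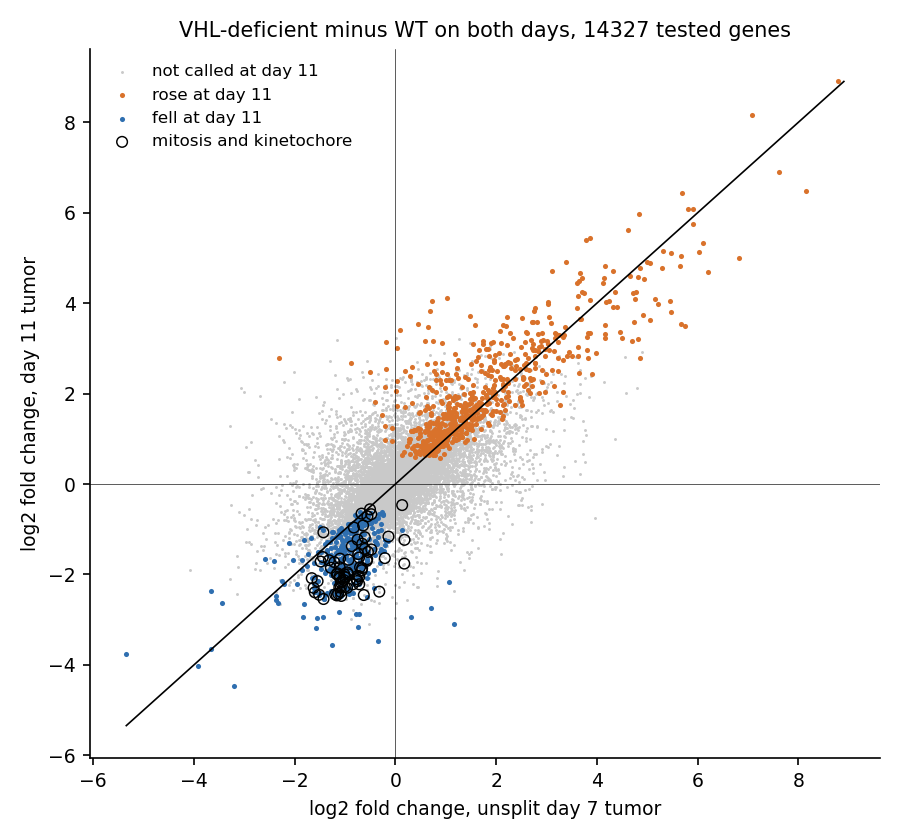
Log2 fold changes, VHL-deficient minus WT, of 14327 tested genes in unsplit day 7 tumor cells (x axis) and in day 11 tumor cells (y axis), with genes risen at day 11 in orange, fallen genes in blue and the line of equal change in black. Risen genes run along the line, while most of the mitosis genes (open circles) lie below it, at medians of -1.95 on the y axis and -0.93 on the x axis.

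The same genes were looked up in the sorted tumor cells and the spleen cells of day 7. Of the 343 genes fallen at day 11, 247 also fell in Trm cells (72.0% of these and 34.3% of the genes fallen in Trm cells, with 5.03% of tested genes fallen there) and 38 in nonTrm cells (11.1% and 39.6%, with 0.67% fallen). In spleen 21 of them fell (6.12% and 20%, with 0.733% fallen), and 264 of the 343 had the same sign there, against 336 in Trm cells. Of the 641 risen genes 397 rose in Trm cells (61.9% and 54.7%, with 5.07% risen), 194 in nonTrm cells (30.3% and 82.2%, with 1.65% risen) and 181 in spleen (28.2% and 51.7%, with 2.44% risen). In all 5 comparisons (day 11 tumor, day 7 tumor, Trm, nonTrm and spleen) 85 genes rose and 5 fell, and 180 risen and 81 fallen genes were called at day 11 alone, which does not show that they differ from the other settings. Tnfsf8 and Usp32, singled out after their values were seen, rose at day 11, by 0.98 and 0.99 log2 units, and fell in spleen, at log2 fold changes of -1.52 and -1.42 (adjusted p = 0.00227 and 0.0204). The difference between the tissues was not tested for these genes.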

How the data were processed

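RNA-seq values of 22 libraries were used, of which 6 are day 11 tumor cells. Per the submitters' processing notes, the authors used STAR, featureCounts and DESeq with mm10. How these were combined is not given in the sources used here. The deposited values are a signal that equals reads divided by a size factor, plus 1. The 1 was removed, and all values then came out as whole reads within 0.01. Genes with at least 10 scaled counts in at least 2 libraries (14327) were tested with limma 3.58.1 in R 4.3.3 on log2(scaled count + 1), with 10 group means, a mean trend, 12 residual degrees of freedom and Benjamini-Hochberg adjustment, and were called at an adjusted p under 0.05 (two-sided). Fold changes on this scale understate the change of low genes. Shares and figures were made with Python 3.11.15, numpy 2.4.6, pandas 2.3.3 and matplotlib 3.10.9. The 65 gene lists, the members and the rule for named genes were chosen with earlier results of these data known. The rule takes a short fixed set around VHL, HIF and effector function, the 20 largest changes per direction among called genes without overlap above the median level, up to 6 called members per list and direction, and genes near 0 in 1 genotype. Genes named outside it, such as members that complete a pathway, were chosen after their values were seen. No list was tested as a set. Positions are from GENCODE M21 and promoter windows from RefSeq (GRCm38.p6). The table's 43 repeated symbols and 26 date-like names were left out of named genes. Counting intervals and floors cover counting error only. Depth per library was 3770210 to 8831316 reads at day 11. Alternatives covered scaling, filters, the pseudocount, the trend, the libraries in the fit, voom, the replicate block and each library left out.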

Additional observations from a re-analysis of the deposited data

Results flagged for a closer look

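Tnfsf8 and Usp32 are given here because their day 11 tumor and day 7 spleen libraries moved in opposite directions, in every library of both. Tnfsf8, the CD30 ligand, rose in day 11 tumor cells, with 843, 919 and 914 scaled counts in VHL-deficient libraries and 492, 403 and 466 in WT libraries (log2 fold change 0.98, adjusted p = 0.0114). In spleen it had 96.1 and 96.8 scaled counts in VHL-deficient libraries and 262 and 296.5 in WT libraries (log2 fold change -1.52, adjusted p = 0.00227). Usp32, a ubiquitin protease, rose at day 11 with 118, 137 and 95.3 against 65.6, 46.8 and 62.3 (log2 fold change 0.99, adjusted p = 0.0326), and had 55.9 and 60.7 in VHL-deficient against 145 and 172 in WT spleen libraries (log2 fold change -1.42, adjusted p = 0.0204). The day 11 call of Tnfsf8 was lost without VHL-deficient replicate 2 or WT replicate 2 (adjusted p 0.0556 to 0.0580), and that of Usp32 was lost without VHL-deficient replicates 1 and 2 or WT replicates 1, 2 and 3 (adjusted p 0.0574 to 0.151). The difference between tumor and spleen was not tested, and the libraries differ in day and in the position codes of their titles as well as in tissue.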

How the results depend on the processing

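The 984 calls at day 11 kept within 1.5 times under a further TMM scaling (956), the scaling without ribosomal and mitochondrial genes (939), filters of 1 and 50 scaled counts (698 and 948), pseudocounts of 0.5 and 5 (918 and 1162), limma without a trend (773) and limma voom on recovered reads (1384). They numbered 604 with no filter beyond a read in 1 library, which put 40936 genes under test, 2825 in a fit of the 6 libraries alone, 1549 without VHL-deficient nonTrm replicate 2 and 419 to 683 without 1 day 11 library. The 242 called list members became 578 in the fit of the 6 libraries, 343 without that nonTrm library and 135 to 179 without 1 day 11 library, and the 273 day 7 calls became 790 in a fit of the libraries compared, 424 without the nonTrm library and 94 to 331 without 1 day 7 library, the last chosen after the data were seen. The interaction stayed at 0 calls in every alternative run, with 179 to 1079 genes at an unadjusted p under 0.05. Same-numbered libraries of the genotypes had correlated deviations of 0.0427, 0.105 and 0.104, so the numbers are not taken to pair them, although each library correlated best with its own number, a hint from the data and not from the design. With the replicate block the calls were 1754 at day 11, 418 among list members, 578 at day 7 and 0 for the interaction. The mitochondrial difference of -6.05 percentage points was -8.48 without the ribosomal RNA gene and -6.55 to -5.61 without 1 library. The promoter difference between risen and all matched tested genes, 2.68 percentage points, was 10.9 with ACGTG alone. Of 201 called genes given with values, 116 kept the call in every alternative that tested them and none reversed. Under TMM scaling 5 of the 201 lost the call, and under the scaling without ribosomal and mitochondrial genes 17 did. Ppp1r3b and Usp32 were among the 17 (adjusted p 0.0527 and 0.0554). Calls were also gained. Of the 27 uncalled genes given with values, 12 were called in the fit of the 6 libraries and 8 with the replicate block. Voom called 7 of them, and 6 were called without VHL-deficient nonTrm replicate 2. Each of the other alternatives called 3 or fewer. Among uncalled genes, the log2 fold change of Cd74 ran over -1.08 to 0.020 and that of Pdcd1 over -0.32 to 0.18 when 1 library was left out, with the sign turned for Cd74 without WT replicate 1 and for Pdcd1 without WT replicate 2. The causes of these shifts were not tested. The edgeR and DESeq2 fits were not run. Few reads limit the near-silent genes, where 1 read was worth up to 1.82 scaled counts.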
